A study of Mus musculus with 8 samples.

Results

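The 5 genes described here, Pcna, Cdc6, Ccne1, Ccna2 and Tmpo, are classic cell cycle targets of E2F transcription factors. Each was taken as 1 window around the gene on the mouse mm9 build, and within it the reads of every library were counted in 500 bp bins and every listed peak was kept. The 5 windows held 230 bins, 8 of the 9643 E2F3 regions of the series, and 13 of its 43575 listed peaks. An E2F3 region is the union of overlapping E2F3 peaks of both genotypes. The main site of a gene is the region in its window with the highest wild-type peak score.

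Chromatin immunoprecipitation followed by sequencing (ChIP-seq), which recovers the DNA bound by an antibody's target, had been carried out in mouse embryonic fibroblasts (MEFs) taken at E13.5. The cells were wild type or E2f3-/- (called E2f3 null below), and each genotype had 1 library for E2F3, 1 for the SNF2-like chromatin helicase HELLS, 1 for the Polycomb mark H3K27me3 and 1 for control IgG, 8 samples in all. How many embryos and passages the cells came from was not stated in the labels, ChIP reads give no marker expression by which to check the cell type, and the deletion of E2f3 itself was not looked for. The 6 ChIP libraries held 3799779 to 5640555 distinct reads. The IgG files of both genotypes were identical and were used as 1 background library of 7219419 distinct reads. With 1 library per group there is no replicate check: every comparison is between 2 libraries and not between conditions, no p-value is given, and each interval is an exact 95% interval that covers counting error only.

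E2F proteins bind short GC-rich elements in the promoters of genes for DNA replication and cell cycle progression. In resting cells retinoblastoma family proteins bind E2Fs and hold these genes silent, and phosphorylation of those proteins by cyclin-dependent kinases releases E2Fs to activate transcription at entry into S phase. E2F3 belongs to the activating E2Fs. Among the 5 genes, Pcna encodes the sliding clamp of replicative DNA polymerases, and Cdc6 encodes a factor that loads the MCM helicase at replication origins. Ccne1 encodes cyclin E1, which activates Cdk2 at the G1 to S transition, Ccna2 encodes cyclin A2 of S phase and mitotic entry, and Tmpo encodes thymopoietin (LAP2), a family of proteins of the nuclear envelope and lamina.

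Promoter sequences were found in RefSeq for 4 of the 5 genes, on build GRCm38.p6. The 250 bases before the gene start are shown to set the promoters with a match to an E2F element beside those without one, and capitals mark each match to an E2F 7-mer, which is an 8-mer (TTTCCCGC, TTTCGCGC, TTTGGCGC or TTTGCCGC, either strand) without its first T. The promoters lie at chr2:132253181-132253430 (minus strand) for Pcna, chr7:38107491-38107740 (minus) for Ccne1, chr11:98907901-98908150 (plus) for Cdc6 and chr10:91170551-91170800 (minus) for the first Tmpo promoter.
Pcna: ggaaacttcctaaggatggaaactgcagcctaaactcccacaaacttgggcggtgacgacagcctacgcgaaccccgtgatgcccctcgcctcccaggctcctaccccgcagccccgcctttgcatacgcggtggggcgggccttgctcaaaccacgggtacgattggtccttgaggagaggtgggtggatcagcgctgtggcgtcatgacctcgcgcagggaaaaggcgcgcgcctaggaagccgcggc
Ccne1: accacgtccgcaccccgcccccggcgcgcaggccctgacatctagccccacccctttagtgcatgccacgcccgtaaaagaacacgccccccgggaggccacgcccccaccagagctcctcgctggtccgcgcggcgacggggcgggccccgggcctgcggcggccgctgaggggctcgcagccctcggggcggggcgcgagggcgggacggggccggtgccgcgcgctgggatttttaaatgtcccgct
Cdc6: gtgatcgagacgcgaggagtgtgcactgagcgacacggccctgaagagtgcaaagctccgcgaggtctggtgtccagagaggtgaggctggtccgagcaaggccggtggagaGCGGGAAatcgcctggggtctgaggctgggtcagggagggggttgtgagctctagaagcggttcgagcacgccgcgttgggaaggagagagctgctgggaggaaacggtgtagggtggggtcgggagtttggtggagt
Tmpo: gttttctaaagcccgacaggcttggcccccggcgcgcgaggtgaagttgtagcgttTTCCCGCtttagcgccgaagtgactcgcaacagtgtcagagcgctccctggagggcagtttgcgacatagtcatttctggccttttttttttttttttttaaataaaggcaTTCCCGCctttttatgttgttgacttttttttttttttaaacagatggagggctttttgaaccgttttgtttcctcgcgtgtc
These coordinates belong to another build than the ChIP windows, and the 2 were not compared, so no distance from a summit to a gene start is given.

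Cdc6 and the first Tmpo promoter carried an E2F match, and Pcna, Ccne1 and the second Tmpo promoter did not. In Cdc6 the single match lay on the minus strand 138 to 132 bases before the start, as part of a whole 8-mer. The first Tmpo promoter had one 7-mer 194 to 188 bases before the start, also part of a whole 8-mer, and another 83 to 77 bases before it, and in addition a CHR element (TTTGAA or TTCGAA), a motif of genes of late cell cycle, at 28 to 23 bases. Of all 32851 RefSeq promoters 7.89% held the 7-mer, 1.86% the 8-mer and 17.1% a CHR element in the same length. A CCAAT box, found in 33.8% of promoters, occurred 87 to 83 bases before the Pcna start and at 2 places in the second Tmpo promoter. GC boxes (GGGCGG, in 32.7% of promoters) occurred in the Pcna, Ccne1 and second Tmpo promoters, and no E-box (CACGTG, in 6.02%) in any of the 5. These matches describe the letters of the windows only, and the absence of a match says nothing about a factor.

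E2F3 was present at every one of the 5 genes in wild-type cells, at 8 sites, and the signal of this antibody was lower at all 8 in the E2f3-null library when libraries were scaled by their reads outside peaks. HELLS reads did not differ between genotypes beyond counting error at any of these sites, and over a whole site lay above IgG at only 1 of them, the second site of Tmpo. No H3K27me3 peak lay in any window in either genotype, whereas 22.0% of all E2F3 regions overlapped a wild-type and 10.8% a null H3K27me3 peak. The profiles of reads across the windows show 1 to 3 narrow E2F3 peaks in wild-type cells, and less relief for HELLS and H3K27me3. Some of the highest HELLS and H3K27me3 bins were also the highest IgG bins. In 1 such bin at Ccna2 wild-type HELLS had 20 reads, null HELLS 23, wild-type H3K27me3 10 and IgG 18. The next highest bins of that window had 5, 5, 3 and 8.

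**Figure D1:**
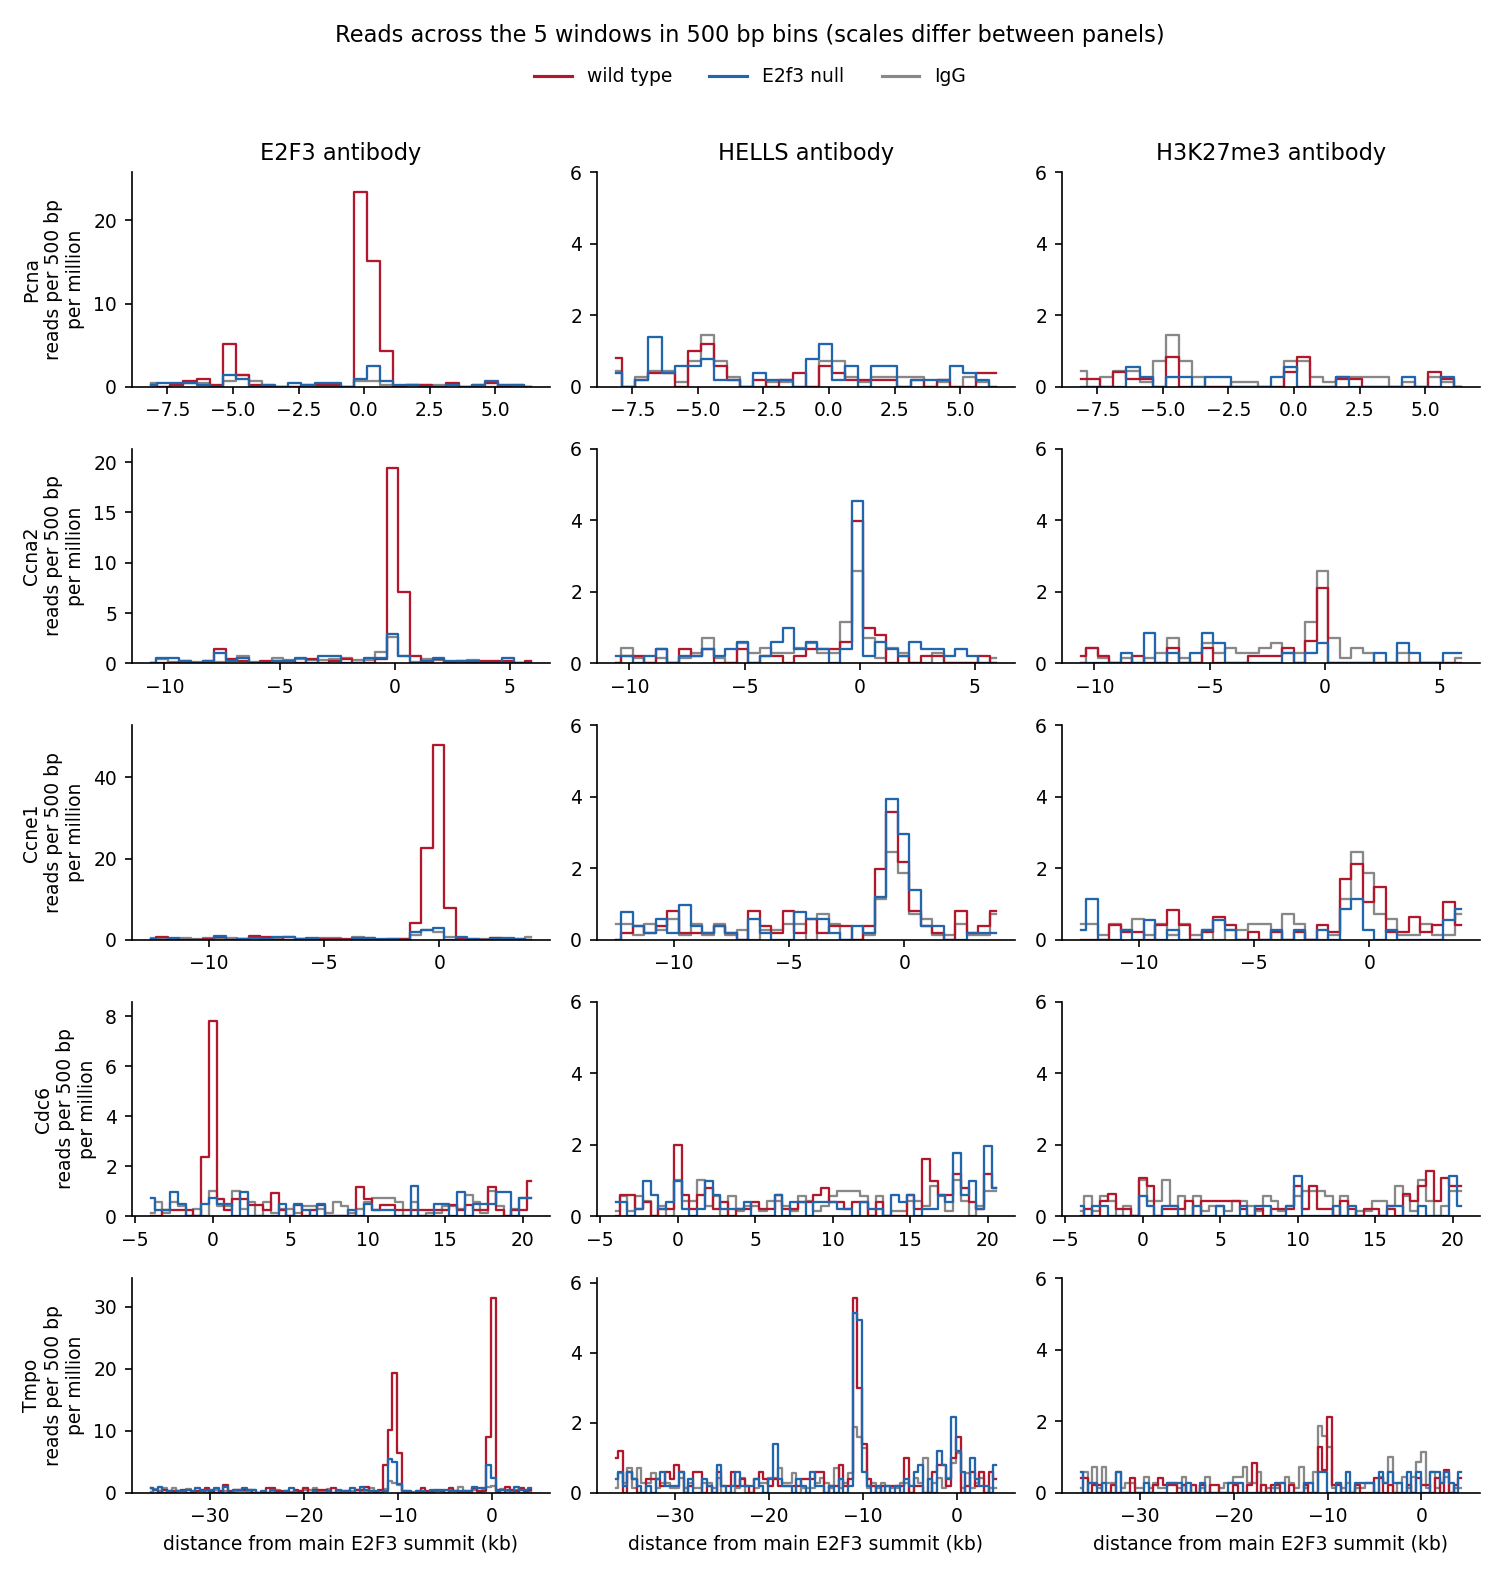
Reads per 500 bp bin (vertical axes, scales differ between panels) against distance in kb from the main E2F3 summit. Rows are the 5 windows and columns the E2F3, HELLS and H3K27me3 antibodies, with wild-type, E2f3-null and IgG libraries as separate lines. Reads are scaled by distinct reads of the library outside all peaks. The wild-type E2F3 line rises at 8 sites in all, and 18 of its 19 bins above IgG touch one of them.

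At Pcna, the polymerase clamp gene, 3 wild-type E2F3 peaks were listed. The main site at chr2:132078058-132078826 held 140 E2F3 reads in the wild-type and 10 in the E2f3-null library, 4 and 7 HELLS reads, 6 and 1 H3K27me3 reads, and 7 IgG reads. Wild-type E2F3 thus stood far above all other libraries, each of which had 10 reads or fewer. Its score in the authors' list was 1820.1 (rank 20 of 8889) with a listed fold of 188.84. An adjacent peak at chr2:132078830-132079365, separated from it by 3 bases, held 41 wild-type and 6 null E2F3 reads over 5 IgG reads. A distant one at chr2:132073266-132073567, whose summit was 4984 bp from the main summit, held 25 and 6 E2F3 reads over 5 IgG reads. Both smaller sites held 2 to 4 HELLS reads in each genotype and no H3K27me3 read, at a limit of 3 reads.

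Cdc6, the origin licensing gene, had 1 E2F3 site, the weakest main site by score. It lay at chr11:98768888-98769415 with a score of 269.08, which ranked 2020 of 8889, the same score as the adjacent Pcna site. It held 41 wild-type and 2 null E2F3 reads, 8 and 3 HELLS reads, 5 and 2 H3K27me3 reads, and 6 IgG reads. Here too wild-type E2F3 was the one library well above IgG. Only 36.3% of the wild-type E2F3 reads of the Cdc6 window fell in the site, against 91.9% at Ccne1, 89.2% at Pcna, 78.3% at Ccna2 and 75.9% at the 2 Tmpo sites.

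Ccne1, the cyclin E1 gene, had 1 broad E2F3 site of 1516 bp at chr7:38891628-38893143, with a score of 2161.32 (rank 10). It held 350 wild-type and 28 null E2F3 reads, 40 and 44 HELLS reads, 25 and 8 H3K27me3 reads, and 39 IgG reads. Over the whole site the HELLS and IgG counts were close to each other. The cyclin A2 gene Ccna2 had 1 compact site at chr3:36470518-36471212, with a score of 563.2 (rank 541). It held 112 and 13 E2F3 reads, 23 and 23 HELLS reads, 10 and 2 H3K27me3 reads, and 20 IgG reads. The IgG density at these 2 cyclin sites, 25.7 reads per kb at Ccne1 and 28.8 at Ccna2, was higher than the 9.10 of the main Pcna site and the 11.4 of Cdc6.

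Tmpo had the highest E2F3 score of the 5 genes, 2362.53 (rank 5), at chr10:90643936-90644919, with a listed fold of 347.67. This main site held 170 wild-type and 28 null E2F3 reads, 11 and 18 HELLS reads, 3 and 2 H3K27me3 reads, and 15 IgG reads. A second site at chr10:90633215-90634807, whose summit was 10135 bp from the main summit, had a score of 826.45 (rank 209). It held the same number of wild-type E2F3 reads, 170, but more in the other libraries: 49 null E2F3 reads, 50 and 54 HELLS reads, 18 and 4 H3K27me3 reads, and 33 IgG reads. The second Tmpo site was the only place in the 5 windows where the E2f3-null E2F3 list and both HELLS lists had a peak together.

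Scaled to IgG, wild-type E2F3 enrichment ran from 32.9 (15.6 to 83.3) at the main Pcna site through 18.6 (11.0 to 34.0) at the main Tmpo site, 14.8 (10.6 to 21.1) at Ccne1 and 11.2 (4.74 to 32.4) at Cdc6 to 9.21 (5.69 to 15.7) at Ccna2. Libraries were scaled by their reads outside all peaks of the series. Neighbours in this order did not differ beyond counting error: of 10 pairs of main sites, only Pcna against Ccna2 had an interval that excluded 1 (ratio 3.57, 1.38 to 10.3), with no adjustment for the 10 pairs. The distant Pcna site had 8.22 (3.09 to 27.5) and the second Tmpo site 8.47 (5.81 to 12.7). The adjacent Pcna site had a log2 enrichment of 3.63, with an interval of 5.33 to 43.7 for the ratio itself. All 8 sites were at least 2-fold above IgG with an interval excluding 1, as were 94.1% of all E2F3 regions, so this count does not set them apart. Sites were defined by E2F3 peaks, so this enrichment is a description.

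**Figure D2:**
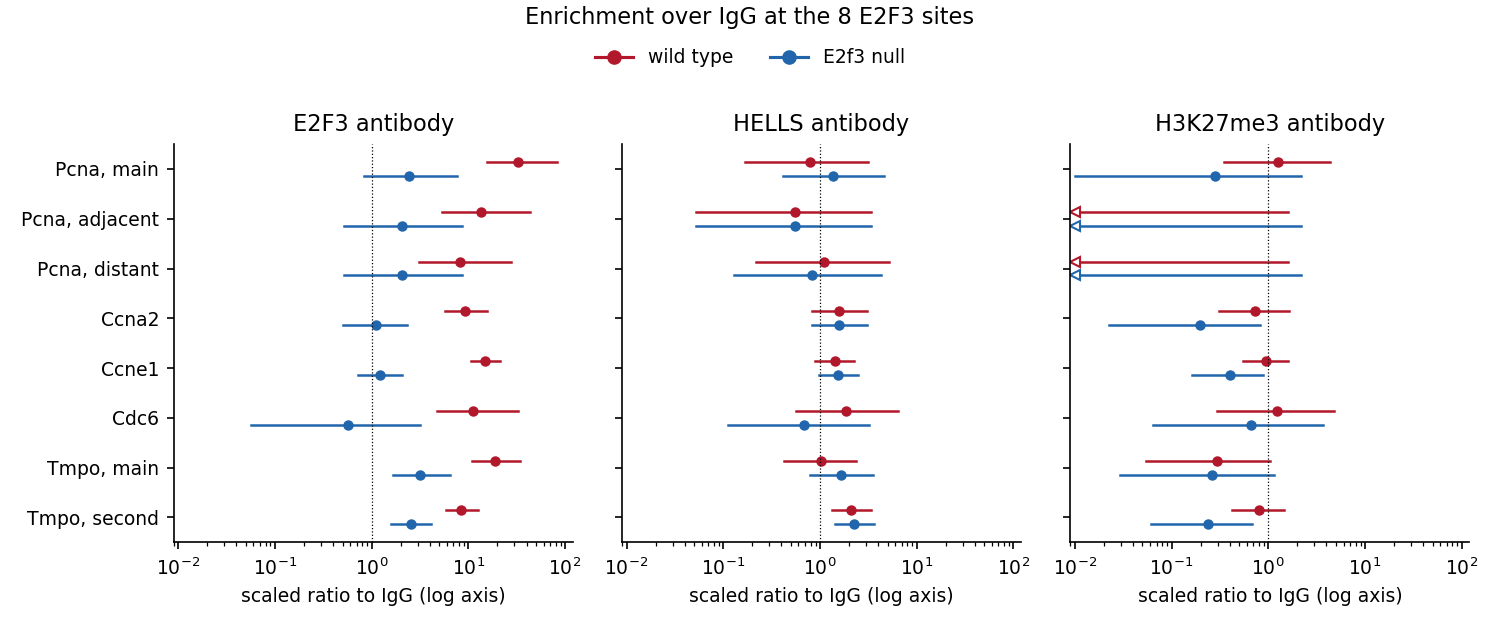
Scaled ratio of reads to IgG (log axis) at the 8 E2F3 sites, 1 panel per antibody, for wild-type and E2f3-null libraries; points are ratios and lines exact 95% intervals for counting error. Wild-type E2F3 lies between 8.22 and 32.9 at all 8 sites, E2f3-null E2F3 is clear of 1 at the 2 Tmpo sites, and HELLS is clear of 1 at the second Tmpo site.

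The comparison of genotypes asked how far the E2F3 signal at these genes depended on E2f3. It was lower in the null library at all 8 sites. A site was called lower when its scaled ratio was 0.5 or less with an interval excluding 1, which 66.8% of all 9643 E2F3 regions met, and 97.4% of the 2022 regions scoring at least as high as Cdc6. The count of 8 is therefore near the background of well-bound regions. The median log2 ratio (null over wild type) was -3.56 over the 5 main sites and -2.81 over the 8 sites, against -1.45 over all regions and -1.98 over the 2022 strong ones. Regions listed mainly from the wild-type library lean towards that library. Main sites were picked by their wild-type score, and neither set of regions was matched to them in score.

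By gene, the null to wild-type E2F3 ratio was 0.0742 (0.0348 to 0.141) at the main Pcna site and 0.0507 (0.00594 to 0.195) at Cdc6. It was 0.0831 (0.0544 to 0.122) at Ccne1 and 0.121 (0.0623 to 0.215) at Ccna2. These 4 replication and cyclin sites were among the regions with the lowest ratios, with between 1.59% (Cdc6) and 6.22% (Ccna2) of all regions having a lower one. All regions include many with a weaker wild-type peak, so this ranking is not one among regions of like strength. The main Tmpo site had 0.171 (0.110 to 0.256) and the second 0.300 (0.213 to 0.414), with 12.5% and 36.5% of regions lower. Over whole regions the main Tmpo site, of the lamina gene, had the highest of the 5 ratios. Among the 10 pairs of main sites, Pcna against Tmpo (0.434, 0.182 to 0.961) and Ccne1 against Tmpo (0.486, 0.268 to 0.882) had intervals that excluded 1, unadjusted. The adjacent and distant Pcna sites had ratios of 0.152 (0.0528 to 0.360) and 0.249 (0.0837 to 0.623). Joining the 2 neighbouring Pcna regions gave 181 and 16 reads and a ratio of 0.0919 (0.0514 to 0.153).

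The ratios depend on the scale. When the median over regions with a peak in each genotype set the scale, which moves all E2F3 log2 ratios by 1.16, the values were 0.166 at Pcna, 0.186 at Ccne1, 0.270 at Ccna2 and 0.382 at Tmpo, and all 5 main sites were still called lower. On that scale the distant Pcna site (0.557, 0.187 to 1.39) and the second Tmpo site (0.669, 0.477 to 0.925) were not. In the 500 bp around the summit the ratio, on the first scale, was 0.0520 at Ccne1, 0.0611 at Cdc6, 0.0683 at Pcna, 0.0866 at Tmpo and 0.0980 at Ccna2, so that Tmpo was not the highest, and no pair of the 10 had an interval that excluded 1.

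**Figure D3:**
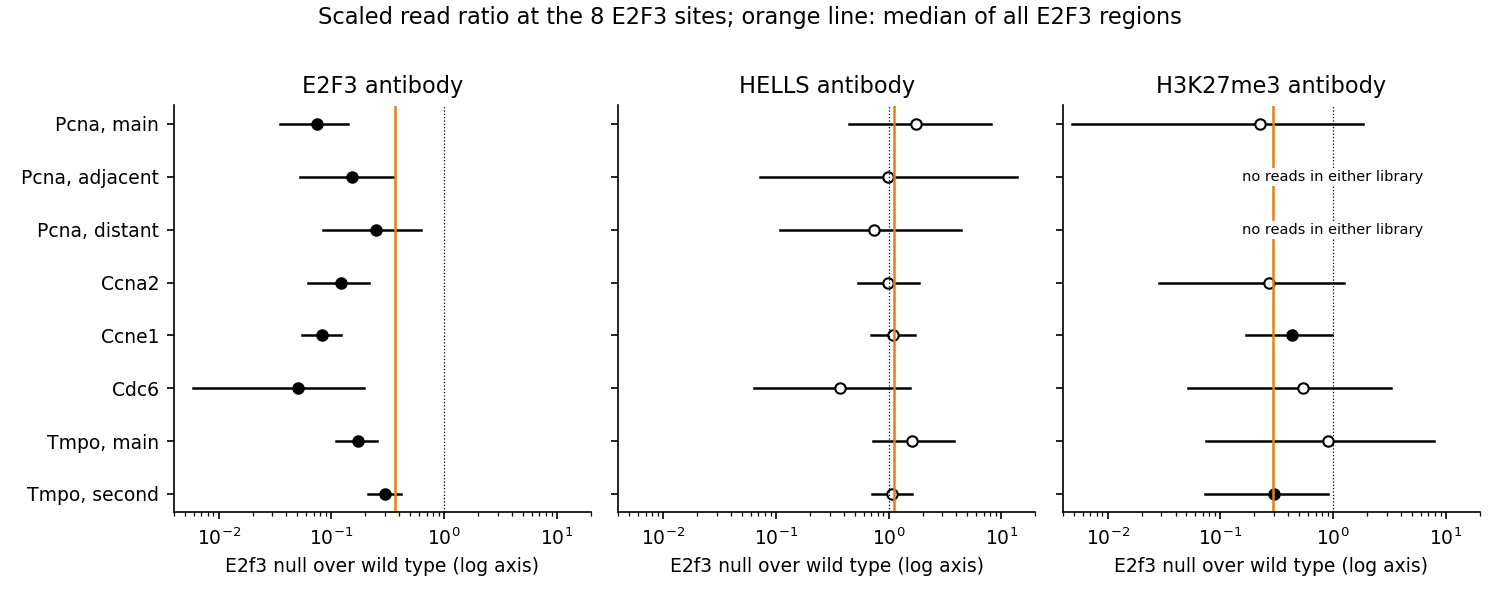
Scaled null over wild-type ratio of reads (log axis) at the 8 E2F3 sites for each antibody, with exact 95% intervals for counting error; the orange line is the median of all 9643 E2F3 regions. All 8 E2F3 ratios lie between 0.0507 and 0.300, while every HELLS interval includes 1.

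At Tmpo the E2F3 antibody gave signal above IgG in E2f3-null cells as well. The null library was at 3.19 times IgG (1.65 to 6.43) at the main Tmpo site and 2.54 times (1.60 to 4.07) at the second. These 2 of the 8 sites passed the 2-fold criterion, as did 31.4% of all regions. The ratio was 2.44 (0.839 to 7.56) at the main Pcna site, 1.23 (0.727 to 2.05) at Ccne1, 1.11 (0.508 to 2.35) at Ccna2 and 0.570 (0.0562 to 3.19) at Cdc6, and those intervals all include 1. One 500 bp bin that touches the main and adjacent Pcna sites, chr2:132078501-132079000, had 10 null E2F3 reads over 5 IgG reads and passed (3.42, 1.06 to 12.7). With reads counted only in the 500 bp around the summit, the main Tmpo site had 12 null reads over 9 IgG reads, a ratio of 2.28 (0.881 to 6.12), and no longer passed. The authors listed 1 null E2F3 peak in the windows, at the second Tmpo site, with a score of 79.77 (rank 1268 of 3314), whereas 33.9% of all E2F3 regions overlapped a null E2F3 peak.

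Within a site the loss of E2F3 signal was not even. Reads within 100 bp of the wild-type summit numbered 564 in the wild-type and 40 in the null library over the 8 sites together, a ratio of 0.0737 (0.0521 to 0.102), against 485 and 102 reads in the rest of the regions, a ratio of 0.219 (0.175 to 0.271). The summit was chosen from the wild-type reads, which lowers the first ratio to an unknown extent. The 2 Tmpo sites showed this most: the ratio was 0.0564 (0.0222 to 0.120) at the main summit and 0.532 (0.299 to 0.922) in the rest of that region, and 0.0779 (0.0278 to 0.177) and 0.497 (0.337 to 0.722) at the second. At Ccne1 the ratios were 0.0582 (0.0229 to 0.123) and 0.0970 (0.0589 to 0.152), whose intervals overlap.

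The second Tmpo site fell into 3 stretches, chosen after their values were seen and so given as a description, where before means at lower coordinates. From 100 bp before to 299 bp after the summit the wild-type and null libraries had 95 and 8 E2F3 reads. Between 700 and 101 bp before the summit they had 26 and 31 reads, a ratio of 1.24 (0.712 to 2.17), and both stood above the 12 IgG reads (3.56, 1.74 to 7.75, and 4.42, 2.20 to 9.44). Further out, from 1000 to 701 bp before the summit, they had 45 and 7. So 2 stretches with a low ratio flanked one with a higher ratio. The middle stretch also held 26 wild-type and 30 null HELLS reads, 2.999 times IgG (1.46 to 6.52) and 3.44 times (1.71 to 7.37), and the stretch at the summit held 7 and 11 HELLS reads over 10 IgG reads. The outer stretch held 15 and 12 HELLS reads over 9 IgG reads, 2.31 times IgG (0.946 to 5.98) and 1.83 times (0.709 to 4.92), and the summits of both listed HELLS peaks fell in it, so HELLS reads were not limited to the middle stretch. At the main Tmpo site, from 400 to 201 bp before the summit, 22 wild-type and 14 null E2F3 reads were counted over 3 IgG reads, against 129 and 7 from 100 bp before to 99 bp after it.

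**Figure D4:**
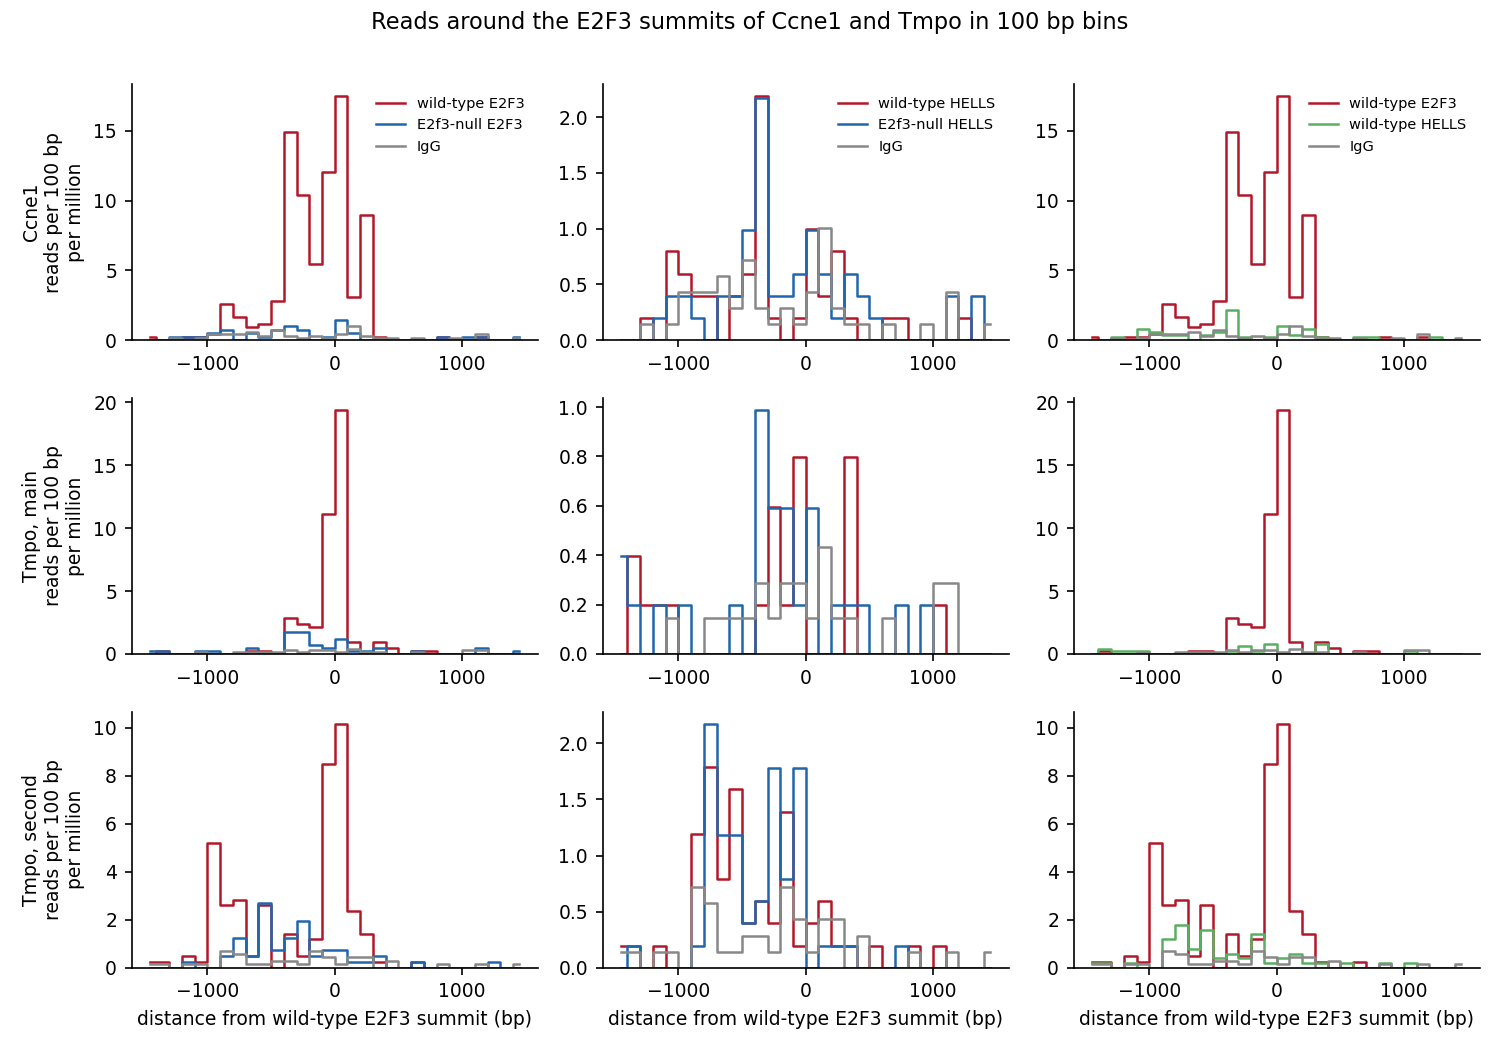
Reads per 100 bp (vertical axes, scales differ) against distance in bp from the wild-type E2F3 summit. Rows are Ccne1, the main Tmpo site and the second Tmpo site. Columns are E2F3 by genotype, HELLS by genotype, and wild-type E2F3 beside wild-type HELLS, each with IgG. Reads are scaled by distinct reads of the library outside all peaks. At the second Tmpo site the null E2F3 reads and the HELLS reads of both genotypes lie mostly at negative distances.

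The shape of the wild-type E2F3 signal differed among genes. Of the reads within 1 kb of the summit, the share within 250 bp was 92.2% at Ccna2, 82.8% at the main Tmpo site, 75.7% at the main Pcna site and 72.3% at Cdc6. It was 83.3% at the distant Pcna site, 57.6% at Ccne1, 58.3% at the second Tmpo site and 22.7% at the adjacent Pcna site, whose 1 kb takes in the main Pcna site. At Ccne1, 107 wild-type E2F3 reads lay 400 to 201 bp before the summit and 125 from 100 bp before to 99 bp after it, and the null library had 7 reads in each stretch. HELLS had 12 wild-type and 13 null reads over 3 IgG reads in the first of these stretches, which was chosen after its values were seen, 5.54 times IgG (1.49 to 30.6) and 5.96 times (1.64 to 32.6).

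HELLS was compared next, as the study paired it with E2F3. At the main sites its null to wild-type ratio was 1.74 (0.442 to 8.10) at Pcna, 0.372 (0.0636 to 1.55) at Cdc6, 1.09 (0.696 to 1.72) at Ccne1, 0.993 (0.533 to 1.85) at Ccna2 and 1.63 (0.727 to 3.81) at Tmpo. At the second Tmpo site it was 1.07 (0.716 to 1.61). None of the 8 sites was called lower or higher, nor were most regions of the series, of which 0.664% were lower and 2.28% higher. With 3 to 44 HELLS reads per main site and genotype, a change of 2-fold lay within the interval at Pcna, Cdc6 and Tmpo, but not at Ccne1 or Ccna2. That limit did not hold under all alternatives: at Ccna2 the interval was 0.470 to 1.63 with the median scaling and 0.486 to 1.83 in the 500 bp around the summit, where that of Ccne1 was 0.533 to 3.08. The median log2 ratio was 0.13 over the 5 main sites and 0.17 over all regions.

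Over whole sites, HELLS was higher than IgG at the second Tmpo site alone, with 2.10 (1.32 to 3.36) in wild-type and 2.25 (1.43 to 3.58) in null cells. Among all E2F3 regions 28.1% met this criterion in wild-type and 39.0% in null cells. At the main sites the wild-type ratio ranged from 0.791 (0.170 to 3.11) at Pcna to 1.85 (0.561 to 6.45) at Cdc6, and all 5 intervals included 1. The median log2 HELLS enrichment of the 5 main sites was 0.50 in wild-type and 0.63 in null cells, below the 0.82 and 0.98 of all E2F3 regions. Summed over the 8 sites, HELLS was at 1.51 times IgG (1.18 to 1.93) in wild-type and 1.63 times (1.28 to 2.07) in null cells, beside 13.3 (11.1 to 16.0) for wild-type E2F3. At Ccne1, Ccna2 and Tmpo the 500 bp bin with the most HELLS reads was also the bin with the most IgG reads.

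The authors listed 4 HELLS peaks in the windows, 2 per genotype. At the second Tmpo site a wild-type peak scored 86.47 and a null peak 130.22, with summits 778 and 736 bp from the E2F3 summit. Between its 2 sites Tmpo differed in HELLS relative to E2F3: per wild-type E2F3 read, wild-type HELLS was 4.55 times (2.23 to 9.99) higher at the second site, although its ratio to IgG differed by 2.07 (0.772 to 5.62), an interval that includes 1. At Ccne1 a null HELLS peak with a score of 55.66 ranked 4270 of 4740, with its summit 378 bp from the E2F3 summit. In the 500 bp around that summit there were 17 wild-type and 22 null HELLS reads over 11 IgG reads, which put null HELLS at 2.75 times IgG (1.28 to 6.28) and wild-type HELLS at 2.14 times (0.945 to 5.05). The wild-type library thus had nearly as many reads as the one in which the peak was listed. By overlap, 17.3% of all E2F3 regions had a wild-type HELLS peak, as 1 of the 8 sites did, and 42.0% a null HELLS peak, as 2 of the 8 did.

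At Cdc6 a wild-type HELLS peak lay away from the E2F3 site, at chr11:98785179-98785576, with a score of 73.23 and a listed false discovery rate of 5.27%. It held 10 wild-type and 0 null HELLS reads, 2 IgG reads, and 2 wild-type and 4 null E2F3 reads. HELLS was called lower there in null cells, with an interval of 0 to 0.443 for the ratio. Among all 5962 HELLS regions 4.65% were called lower. The region was in the wild-type list because its wild-type count was high, and 10 reads are few.

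In the profile by 500 bp bins, 19 of the 230 bins were above IgG for wild-type E2F3. Of the bins of the genome with at least 1 read in that library or IgG, 0.791% passed. The shares in brackets below were counted in the same way, whereas the 230 bins include some without reads. For null E2F3, 5 bins passed (0.441%), of which 4 touched an E2F3 site. For HELLS it was 2 bins in wild-type (0.390%) and 3 in null cells (0.408%). The HELLS bins at E2F3 sites, 1 in wild-type and 2 in null cells, were all at the second Tmpo site. For H3K27me3 no bin passed in wild-type (1.46%) or null cells (1.12%).

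Reads in the sites were compared with the rest of the windows. Over the 5 windows the E2F3 library had 1316 reads in wild-type and 420 in null cells, a ratio of 0.332 (0.296 to 0.370). Outside the 8 sites these counts were 267 and 278, a ratio of 1.08 (0.911 to 1.28), which scaling by reads outside peaks sets near 1 in large part. Scaled to the median of regions shared by the genotypes, the 2 ratios were 0.741 (0.662 to 0.828) and 2.42 (2.04 to 2.87). The null to wild-type ratio in the sites relative to that outside them does not depend on the scale, and was 0.130 (0.101 to 0.167). All 8 sites had a wild-type E2F3 peak and 1 had a null peak. This choice of sites lowers the value to an unknown extent. HELLS had 502 and 512 reads over the windows, a ratio of 1.01 (0.894 to 1.15). By gene the window ratio for HELLS ranged from 0.889 (0.674 to 1.17) at Cdc6 to 1.32 (0.871 to 2.00) at Pcna.

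H3K27me3, found on genes silenced by Polycomb, was not above the IgG level at any of the 8 sites. The corresponding share above IgG among all E2F3 regions was 26.5% in wild-type and 10.7% in null cells. Over whole windows, wild-type H3K27me3 relative to IgG was 0.507 (0.293 to 0.845) at Pcna, 0.510 (0.316 to 0.799) at Ccna2 and 0.542 (0.407 to 0.715) at Tmpo. These 3 windows lay below IgG, while Ccne1 with 0.968 (0.704 to 1.32) and Cdc6 with 0.884 (0.666 to 1.17) did not differ from it beyond counting error. In spans of 15 kb around each E2F3 region, 1.83% of all regions had a lower wild-type ratio than Pcna, 0.695% than Ccna2, 3.60% than Tmpo, 23.0% than Cdc6 and 63.7% than Ccne1. In the null library these shares were 24.9% for Pcna, 41.0% for Ccna2, 61.2% for Tmpo, 12.4% for Cdc6 and 41.5% for Ccne1. The low rank of Pcna, Ccna2 and Tmpo was thus most marked in the wild-type library, but a rank also depends on the other regions. Their median ratio to IgG was 1.02 in wild-type and 0.673 in null cells. The null spans themselves had 0.469 (0.242 to 0.851) at Pcna, 0.588 (0.348 to 0.957) at Ccna2 and 0.797 (0.499 to 1.24) at Tmpo. Over whole windows null H3K27me3 lay below IgG at every gene, from 0.396 (0.254 to 0.597) at Cdc6 to 0.565 (0.363 to 0.855) at Ccne1.

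Beside the 50 kb on either side, the windows held less wild-type H3K27me3. The ratio of window to flanks, each relative to IgG, was 0.459 (0.277 to 0.742) at Ccna2, 0.574 (0.412 to 0.796) at Tmpo and 0.640 (0.452 to 0.904) at Ccne1. It was 0.602 (0.339 to 1.03) at Pcna and 0.988 (0.723 to 1.34) at Cdc6, whose intervals include 1. Over the 5 windows together it was 0.664 (0.565 to 0.779), and 0.646 (0.538 to 0.774) when the E2F3 sites were left out. In null cells the 5 windows together gave 0.628 (0.511 to 0.768). By gene the null ratio was 0.415 (0.260 to 0.648) at Ccne1 and 0.528 (0.300 to 0.898) at Ccna2. It was 0.681 (0.332 to 1.30) at Pcna, 0.824 (0.510 to 1.30) at Cdc6 and 0.830 (0.562 to 1.22) at Tmpo, whose intervals include 1. The flanks of Ccna2 held 1 wild-type and 2 null H3K27me3 peaks, and those of Ccne1 held 1 wild-type peak. Reads in these peaks are part of the flank level.

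**Figure D5:**
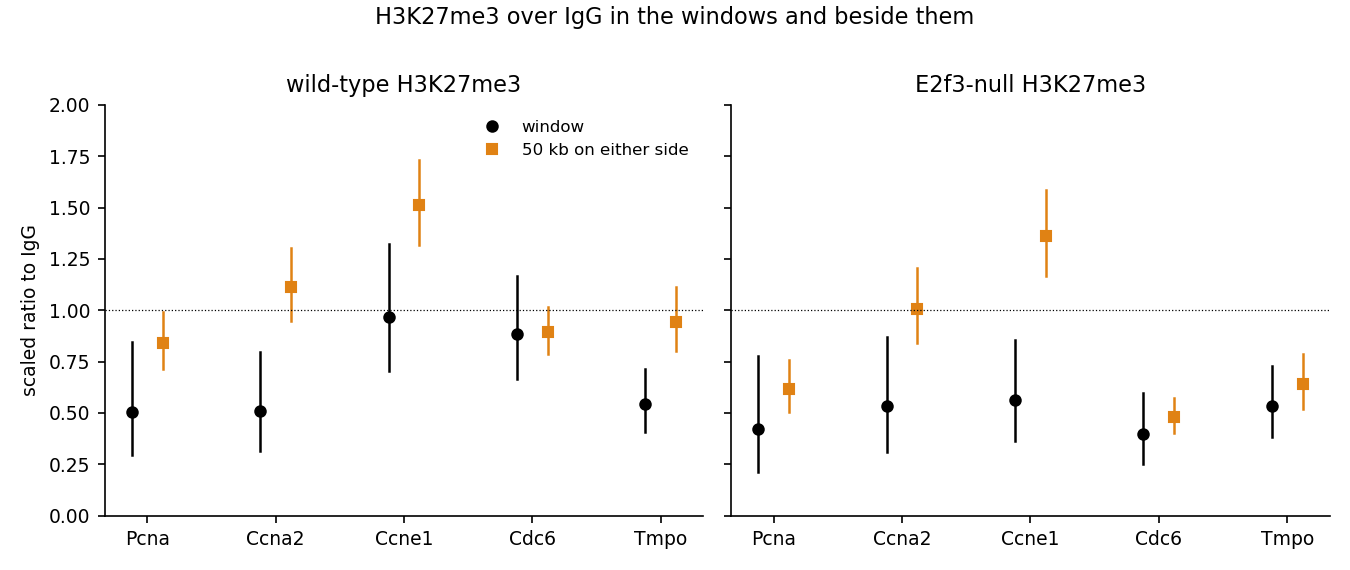
Scaled ratio of H3K27me3 reads to IgG in each gene's window and in the 50 kb on either side, for wild-type and E2f3-null cells, with exact 95% intervals for counting error. In wild-type cells the window lies below its flanks with an interval excluding 1 at Ccna2, Ccne1 and Tmpo.

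Between genotypes, H3K27me3 was called lower in null cells at Ccne1 (0.430, 0.168 to 0.983) and at the second Tmpo site (0.298, 0.0735 to 0.906), 2 of the 8 sites against 49.6% of all E2F3 regions. The wild-type level at both sites did not exceed IgG. At the 5 main sites the median log2 ratio was -1.16, against -1.76 over all regions. Over the windows H3K27me3 had 272 and 144 reads, a ratio of 0.711 (0.577 to 0.873). It was 0.448 (0.281 to 0.694) at Cdc6, 0.584 (0.367 to 0.909) at Ccne1, 0.831 (0.382 to 1.74) at Pcna, 1.04 (0.561 to 1.92) at Ccna2 and 0.984 (0.674 to 1.43) at Tmpo. Scaling to the median of shared regions turned the direction over all windows, to 1.44 (1.17 to 1.77), and gave 0.905 (0.568 to 1.402) at Cdc6 and 1.18 (0.742 to 1.84) at Ccne1. In null cells H3K27me3 lay below IgG at Ccna2, Ccne1 and the second Tmpo site, 3 of the 8 sites, as at 27.9% of all E2F3 regions. The null H3K27me3 library was the shallowest, with 3799779 distinct reads. The Ccne1 call at the E2F3 site was lost when libraries were scaled by all distinct reads or by the median of shared regions, or counted in the 500 bp around the summit. The call at the second Tmpo site was lost under both scalings, with 0.330 (0.0812 to 1.001) by all distinct reads and 0.603 (0.148 to 1.83) by the median.

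The 5 main sites were not each other's closest matches. Likeness was measured as the Euclidean distance over the log2 ratios to IgG of the 6 ChIP libraries, against the regions outside the 5 windows. The most alike members were Ccne1 and Ccna2, at a distance of 1.14, with 80 other regions closer to Ccne1 and 277 closer to Ccna2. The region closest to Ccne1 lay at chr2:148498055-148498612, at a distance of 0.162, with 57 wild-type and 4 null E2F3 reads, 6 and 7 HELLS reads and 6 IgG reads. The region closest to Pcna lay at chr15:76501850-76502387, at 0.708, with 122 and 13 E2F3 reads, 6 and 9 HELLS reads and 9 IgG reads. The closest regions to the others lay at chr9:96264557-96265132 for Ccna2 (0.336), chr6:28085893-28086191 for Cdc6 (0.874) and chr7:151008677-151009166 for Tmpo (1.12). Because they were chosen on these ratios, the matches of Ccne1 and Pcna share with their member strong wild-type E2F3, near loss of it in null cells, and HELLS close to IgG.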

How the data were processed

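ChIP libraries of wild-type and E2f3-null MEFs, grouped by the genotype and antibody in the labels, were compared at 5 gene windows. Per the labels' protocols, DNA was amplified for 22 PCR cycles and 36 nucleotides were read. The authors deposited aligned reads on the mm9 build (per the submitters' processing notes), and the aligner is not given in the sources used here. Per the file headers, the authors ran MACS 1.4.0beta on each library with a p-value cutoff of 1e-05. The deposited peak tables give a count of tags, a score made from the p-value, a fold (a ratio to the tags expected locally) and, in percent, a false discovery rate. Summit positions were taken from these peak tables, and the height of the signal in the authors' separate summit lists was not used.

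One read per position and strand was kept, moved 60 bp towards the fragment centre and counted. Libraries were scaled by distinct reads outside all 27092 peak regions. Ratios carry exact conditional binomial 95% intervals, and calls needed 2-fold and an interval excluding 1. Log2 ratios had 0.5 added to each count. PCR copies are not separate molecules, so intervals and the floor of 3 reads cover counting error only. The counting test was also run on simulated data, and no outcome of that run is given here or used as support. Depth ranged from 3799779 to 7219419 distinct reads.

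The members and lists were chosen with earlier results of these data known. Named genes were the 5 members, every peak in their windows, and the region outside them most like each main site. Other E2F target genes were looked up in the promoter table only, since no mm9 annotation was used. Alternatives were other scalings, all reads, other shifts, a 500 bp summit interval, a 1.5-fold threshold, other bins, a score minimum of 100 and a 50% overlap. Python 3.11.15, numpy 2.4.6, scipy 1.17.1, pandas 2.3.3 and matplotlib 3.10.9 were used.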

Additional observations from a re-analysis of the deposited data

How the results depend on the processing

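No paired analysis was possible because each group had 1 library, and for the same reason no replicate could be left out. E2F3 was called lower in E2f3-null cells at the 5 main sites in all 40 values over the alternatives run, with ratios from 0.0507 to 0.382. HELLS was called at none of the 40, with ratios from 0.328 to 1.74, and H3K27me3 was called lower in 5 of 40. Not all of these values are separate checks. The 1.5-fold threshold leaves every ratio as in the main setting, and joining the Pcna regions changes Pcna only. The joined Pcna regions, the other scalings of the 3 remaining sites and of the windows, and the pairs of sites in 500 bp were alternatives chosen after seeing the data. With scaling to the median of shared regions, E2F3 was lower at 6 of the 8 sites. The count of main sites with lower H3K27me3, 1 as reported, was 0 with scaling by all distinct reads, 0 with scaling to the median of shared regions and 0 in the 500 bp around the summit. The count of main sites with null E2F3 above IgG was 0 in that 500 bp. Bins above IgG numbered 3 for null E2F3 and 1 for wild-type HELLS with 1000 bp bins, 5 for wild-type HELLS with the grid moved by 250 bp, and, with reads not moved, 6 for null HELLS and 1 for wild-type H3K27me3. With a score of 100 or more, 0 peaks remained in the windows for null E2F3, 0 for wild-type HELLS and 1 for null HELLS. In these counts of few sites, bins and peaks the cause was not tested. Scaling to the median of shared regions moves log2 ratios by 1.16 for E2F3, -0.18 for HELLS and 1.02 for H3K27me3. Depth limits HELLS and H3K27me3 most, with under 10 reads per library at Pcna and Cdc6.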

Other observations

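Other E2F target genes of replication, mitosis and E2F control were looked up in the promoter table by a fixed list of 32 genes, of which 28 had an entry. In the 250 bases before any listed start, 8 of these 28 genes (28.6%) held an E2F 8-mer and 12 (42.9%) an E2F 7-mer, against 2.16% and 9.01% of all 27025 genes in the table. A CCAAT box occurred in 17 (60.7%, all genes 37.5%), a GC box in 21 (all genes 35.4%), a CHR element in 8 (28.6%, all genes 19.6%) and an E-box in 2 (7.14%, all genes 6.86%). Of the 4 member genes in the table, Cdc6 and Tmpo held an E2F element and Pcna and Ccne1 did not. The list was chosen as known E2F targets, so these shares describe the list, and no ChIP value was assigned to its genes.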
